A study of Danio rerio with 14 samples.

Results

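The genes described here are the enzymes of conjugation, the step by which a liver cell couples a charged group to a hormone, a bile pigment, a drug or a reactive by-product. Members were all genes whose symbol, case ignored, starts with sult or ugt and a digit, or with gsta, gstm, gsto, gstp, gstr, gstt, gstz or gstk. A probe set counted only if it named 1 symbol, and for a gene with several probe sets the one with the highest mean over the arrays was used. The rule found 57 genes among the 20908 tested, namely 17 sulfotransferases (sult), 23 UDP-glucuronosyltransferases (ugt) and 17 glutathione S-transferases (gst). All 57 symbols were found in the RefSeq annotation of zebrafish, where 80 genes carry a symbol of this kind. A further 20 symbols, mostly of the ugt1a, ugt1b and ugt2a clusters, stood only on 13 probe sets that name several genes, so they have no value of their own. The members ugt2b2p and ugt5b5 are annotated as transcribed pseudogenes.

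Sulfotransferases move a sulfonate group from the carrier PAPS to a hydroxyl or amine, and in mammals the SULT1 class acts mainly on phenols such as thyroid hormones and catechols and the SULT2 class on hydroxysteroids. UDP-glucuronosyltransferases sit in the membrane of the endoplasmic reticulum and attach glucuronic acid from UDP-glucuronate; in mammals UGT1A enzymes conjugate bilirubin and many drugs and UGT2B enzymes conjugate steroids, while the UGT5 family is known from fish and amphibians. Glutathione S-transferases couple the tripeptide glutathione to electrophiles, and their classes are named alpha (gsta), mu (gstm), pi (gstp), theta (gstt), omega (gsto), zeta (gstz), kappa (gstk) and the rho class (gstr) of fish. The conjugates are water soluble and leave the hepatocyte through transporters into bile or blood.

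The livers of zebrafish of 4 genotypes were profiled on 14 ZebGene 1.1 ST arrays after a feeding period of 8 weeks that began at 3 months of age. AB strain fish (WT) were compared with lines that express HBx (the X protein of hepatitis B virus), the tyrosine kinase Src or both, each driven by the liver promoter fabp10a, and all 3 transgenic lines also carried the p53 mutation, so transgene and p53 mutation cannot be told apart in a comparison with WT. The lines with a single transgene are written HBx(p53-) or Src(p53-), and the line with both HBx,Src(p53-). Every group received about 0.22 g of powdered feed daily. Beside it the normal diet (NOR) held 0.5 mL Artemia given 1 time daily, and overfeeding (DIO) 2 mL given 3 times daily. The high fat diet (FAT) added to the normal Artemia 0.22 g of high fat food 3 times daily. WT normal, HBx,Src(p53-) normal and HBx,Src(p53-) overfed had 2 arrays each, named by number as in WT normal 1. The other 8 groups had 1 array, and high fat feeding was not done on HBx,Src(p53-). Each array was made from 1 fish, and the spread behind each p-value is that between fish mixed with other differences. In the within-line diet comparisons it includes gaps between the overfed and high fat arrays of a line. In the model of genotype and diet as additive terms it includes any departure from additivity. The sex of the fish is not given in the sources used here.

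All values are log2 levels after the authors' normalization, on which a difference of 1 is 2-fold, and ± marks the standard error from limma unless SD is stated. Correlations between arrays over all genes lay between 0.924 and 0.968. The mean of 10 hepatocyte markers was between 11.42 and 12.22 on every array. Markers of some other cells moved with genotype. The mean of the exocrine pancreas markers (18 of 22 measured) was 3.69 to 4.58 in WT, 5.35 to 7.43 in HBx(p53-), 3.94 to 5.2 in Src(p53-) and 5.22 to 6.49 with both transgenes. The mean of the leukocyte markers (12 of 13) was 3.31 to 4.13 in WT, 3.86 to 4.35 in HBx(p53-), 4.16 to 4.61 in Src(p53-) and 4.32 to 4.79 with both transgenes. That of the germ cell markers (14 of 14) was 1.70 to 2.34 in WT, at most 2.02 with a single transgene and 2.22 to 3.48 with both. The intestine markers (11 of 14) had median changes from WT of +0.09 in HBx(p53-), -0.07 in Src(p53-) and -0.09 with both. Exocrine pancreas markers also moved with diet. On high fat food against normal diet 18 were higher and 0 lower (median +1.02). On the overfed and high fat arrays of Src(p53-) against its normal array 16 were higher and 2 lower (median +1.19). The part of these markers in the diet results was not tested further. Normalized log2 values hold no zeros, so no marker was absent in the sense of a count of 0. In such bulk tissue fewer cells of a type and less RNA per cell cannot be told apart.

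Conjugating enzymes varied more between livers than most genes did. The range of a member over the 14 arrays had a median of 2.29, against 1.35 for all genes, and 33 of 57 members (57.9%) spanned more than 2 units against 22.5% of all genes. A range over 4 units, which is 16-fold, was seen in 7 members (12.3%) against 2.34% of all genes, of which 4 were sult, 2 ugt and 1 gst genes. Among genes with a mean above the median of all genes the members still had the wider range, with a median of 2.66 for 38 members against 1.73. By class the median range was 2.40 for sult, 2.82 for ugt and 1.62 for gst genes. The median level of all genes was 3.12, and 26 members lay above it on every array, 13 below it on every array and 18 on both sides.

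**Figure D1:**
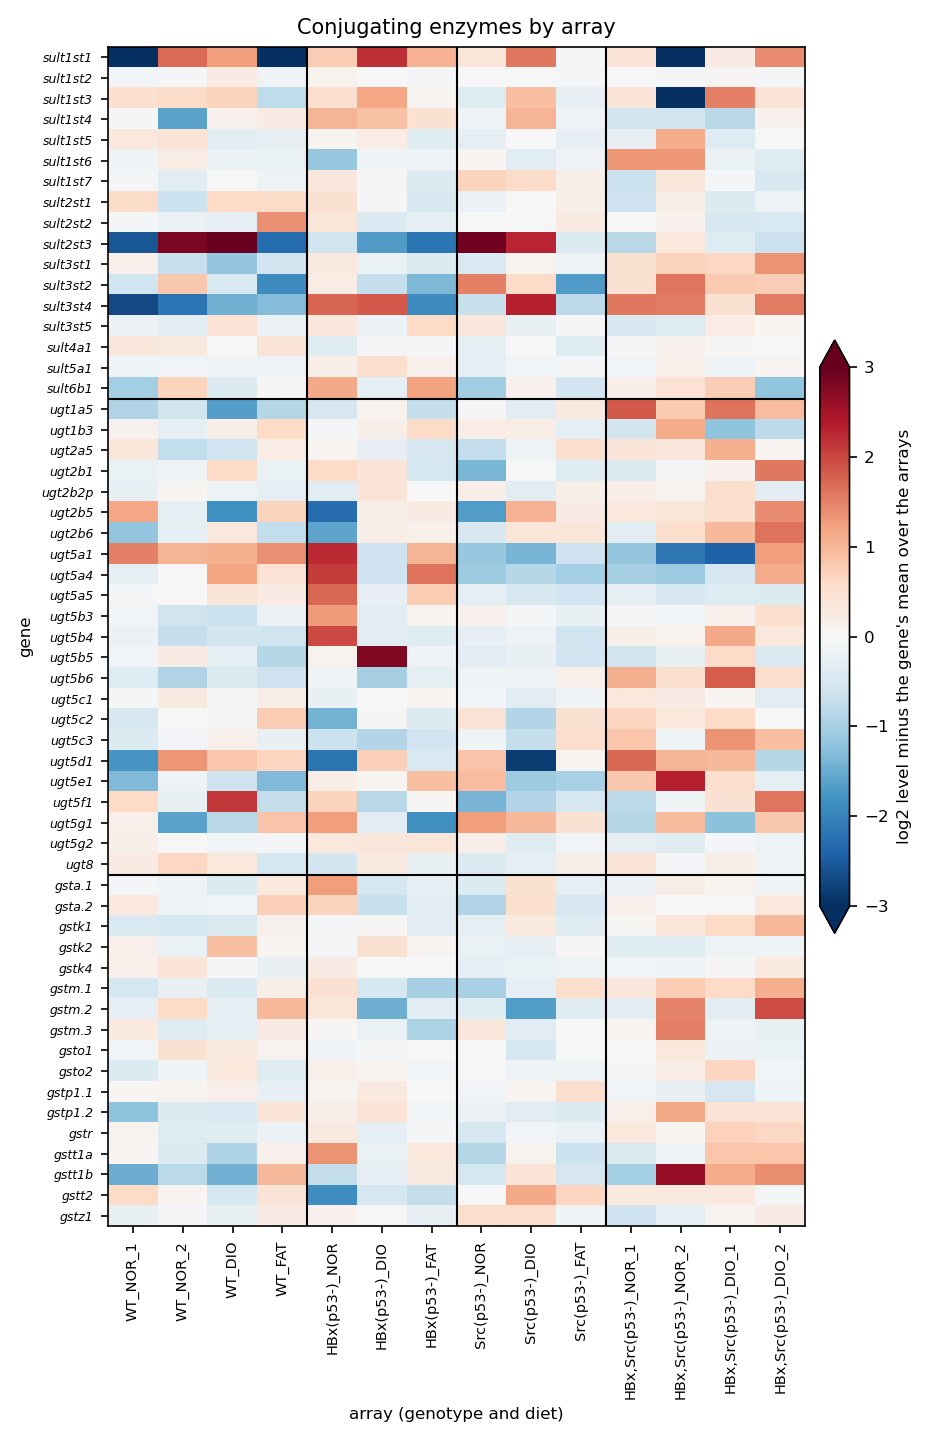
Heat map of all 57 members (rows, grouped as sult, ugt and gst) on the 14 arrays (columns, grouped by genotype), with colour giving the log2 level minus the gene's mean over the arrays and saturating at 3 in either direction. The rows of sult1st1, sult1st3 and sult2st3 reach the ends of the scale or nearly so, and the HBx(p53-) normal column holds the highest value of 9 members.

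The sulfotransferases with the widest ranges lay near the array medians on some arrays and above 7 on others. For sult1st1 the WT values were 1.70 and 7.53 on normal diet, 7.09 overfed and 2.75 on high fat food, and the HBx,Src(p53-) values were 6.26 and 2.14 on normal diet and 6.09 and 7.27 overfed. The 6 arrays of the single-transgene lines lay between 5.78 and 8.04. WT normal 1, WT high fat and HBx,Src(p53-) normal 2 were thus low, and no genotype or diet separated the low arrays from the rest. For sult2st3, of the hydroxysteroid class, WT normal 1 was at 1.93 and WT normal 2 at 7.34, while WT overfed was at 7.81 and WT high fat at 2.20. Src(p53-) was at 7.41 on normal diet, 6.79 overfed and 4.09 on high fat food, and the 7 arrays with HBx lay between 2.32 and 4.83. High values thus occurred in WT and Src(p53-) and in neither HBx-carrying line, but WT spanned nearly the whole range (4.82 ± 3.19, SD, n = 4).

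The neighbouring gene sult1st3 stood at 1.72 on HBx,Src(p53-) normal 2 and between 6.28 and 8.56 on the other 13 arrays. Its second probe set, which correlated with the first at r = 0.965 over the 14 arrays, was also lowest there, at 3.01 against 5.06 to 6.86. In RefSeq gene order sult1st7, sult1st9, sult1st1, sult1st2 and sult1st3 follow each other, and of these sult1st1 was also low on that array, at 2.14. For sult1st4, outside that run of genes, the values were 5.32 to 7.17 in WT, 7.38 to 7.95 in HBx(p53-), 6.78 to 7.94 in Src(p53-) and 6.09 to 7.04 with both transgenes. On this probe set HBx(p53-) was above every WT array. On its other probe sets the ranges overlapped, with WT up to 7.75 and 6.74 and HBx(p53-) from 7.31 and 6.23.

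**Figure D2:**
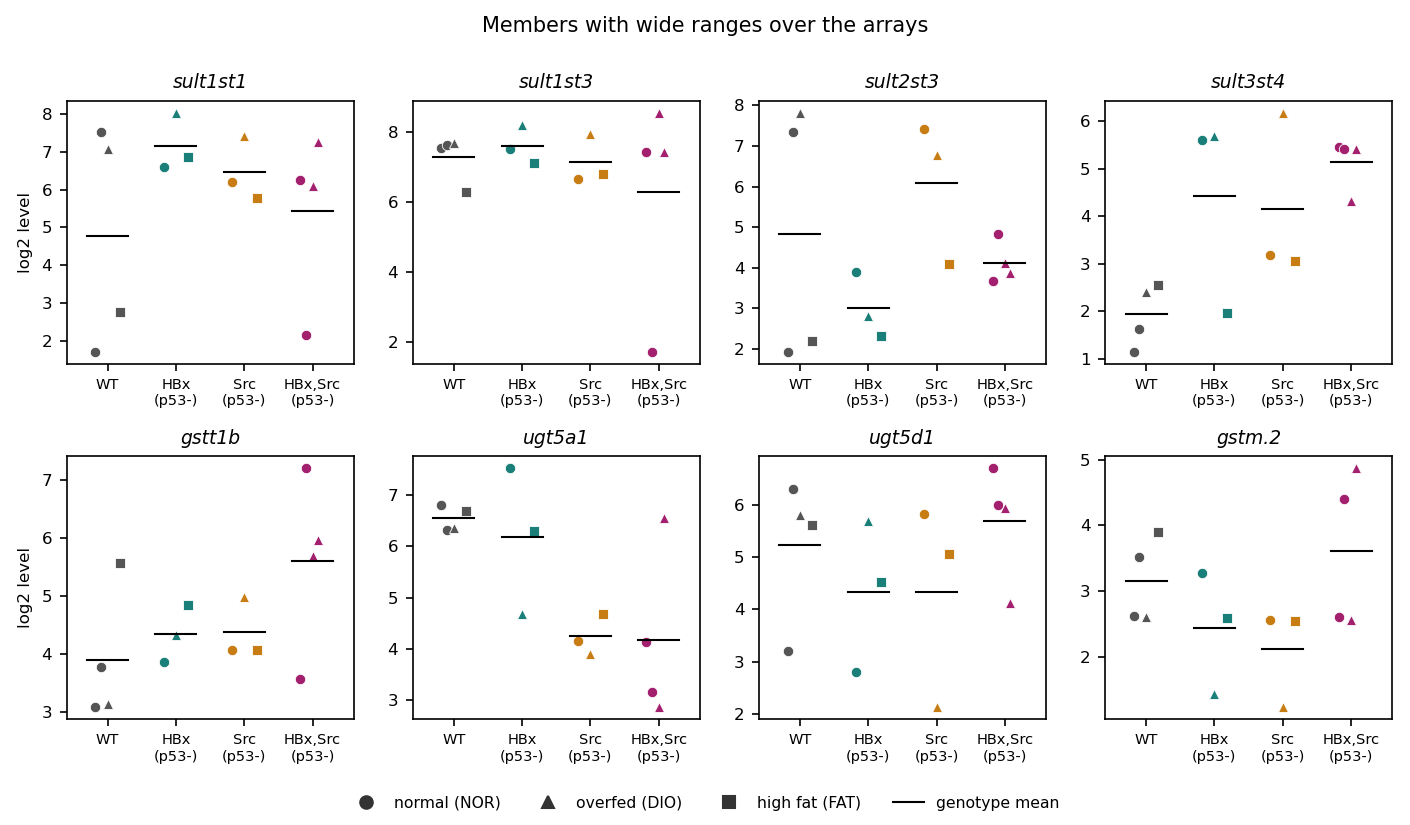
Log2 level of 8 members with wide ranges on each array, by genotype (x axis) and diet (circle NOR, triangle DIO, square FAT), with a line at the genotype mean. Arrays of the same genotype and diet can sit at opposite ends, as sult1st1 and sult2st3 do in WT on normal diet (1.70 and 7.53, and 1.93 and 7.34).

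Gaps between replicate arrays of a group exceeded those of all genes less clearly. Between the WT normal arrays 11 members (19.3%) lay over 2-fold apart against 16.3% of all genes, between the HBx,Src(p53-) normal arrays 12 (21.1% against 14.2%), and for the overfed pair of HBx,Src(p53-) 14 (24.6% against 7.49%). The median gap of the members was 0.453 against 0.401 for all genes in the WT pair, 0.315 against 0.343 in the normal pair of HBx,Src(p53-) and 0.395 against 0.294 in its overfed pair. Between the overfed pair the widest gaps were in ugt5a1 (2.87 and 6.55) and gstm.2 (2.56 and 4.87). The theta-class gene gstt1b stood at 3.57 on HBx,Src(p53-) normal 1 and at 7.2 on normal 2. For ugt5d1 the WT normal arrays were at 3.21 and 6.31, and its other low arrays were HBx(p53-) normal at 2.79 and Src(p53-) overfed at 2.13. For each of these genes 2 arrays of 1 group lay more than 2 units apart, though some arrays of different groups lay further apart.

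Other members were steady. The rho-class gene gstr lay between 10.45 and 11.67 on all arrays, and gstz1, which in mammals acts in tyrosine breakdown as maleylacetoacetate isomerase, between 6.47 and 7.62. The gene ugt8, which in mammals makes galactosylceramide and uses UDP-galactose, was between 6.22 and 7.38. The sulfotransferase sult4a1, known in mammals as a brain form, was near the floor, between 1.95 and 2.73.

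The comparison of HBx,Src(p53-) with WT asks what differs in livers with both transgenes, with diet as a term in the model. Genes with an adjusted p (Benjamini-Hochberg, all genes) under 0.05 are said to be called, and 104 genes (0.497%) were. Among the members 1 was called, ugt1a5, a gene of the cluster whose mammalian counterpart conjugates bilirubin. Its levels were 5.18 and 5.50 (normal), 4.45 (overfed) and 5.25 (high fat) in WT. They were 7.94 and 6.88 (normal) and 7.71 and 7.02 (overfed) in HBx,Src(p53-). Every HBx,Src(p53-) array was above the 10 arrays of the other lines, with HBx(p53-) at 5.37 to 6.19 and Src(p53-) at 5.77 to 6.38. The gene rose by 2.33 ± 0.33, or 5.03-fold (adjusted p = 0.0127).

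The call of ugt1a5 depended on the settings. Without the WT overfed array the change was +2.04 with an adjusted p of 0.0757. With the mean of the exocrine pancreas, the leukocyte or the germ cell markers as a covariate it was +3.01, +3.22 and +1.42, with adjusted p of 0.420, 0.272 and 0.249. Those markers move with genotype as given above, and their part in the result was not tested further. A probe set shared by ugt1a5 and the other 6 ugt1a genes was at 7.71 to 8.20 in HBx,Src(p53-) and at 6.25 to 7.55 in WT, so these ranges did not overlap either. A second probe set of the same 7 genes did overlap, with HBx,Src(p53-) at 4.37 to 6.07 and WT at 3.61 to 5.37. In mammals the UGT1A enzymes share their last exons, and whether the ugt1a5 probe set also binds other ugt1a RNA was not tested.

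By the looser rule of a change over 2-fold at an unadjusted p under 0.05, 10 members (9 higher and 1 lower) passed, which is 17.5% of them, against 4.41% of all genes. Over the alternative settings this count of members ran from 5, with the exocrine pancreas markers as a covariate, to 14. The median change of the members was +0.12 and that of all genes +0.03. With each array centred on its median the median change of all genes moved to -0.14 and that of the members to -0.05, and the genes called went from 96 higher and 8 lower to 49 higher and 16 lower. Quantile normalization over the genes tested gave 54 higher and 11 lower. The ranges of HBx,Src(p53-) and WT did not overlap for 8 of the 57 members, against 5.81% of all genes. For sult3st1, ugt1a5 and ugt5b6 every HBx,Src(p53-) array was above all 10 other arrays. These are 5.26% of the members, against 1.24% of all genes that lay wholly above or wholly below the 10. Leaving out HBx,Src(p53-) normal 2 lowered the count over 2-fold to 6 and added ugt5b6 to the calls (+1.79, adjusted p = 0.0301). Leaving out HBx,Src(p53-) overfed 2 added ugt5a1 (-3.09, adjusted p = 0.0265).

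**Figure D3:**
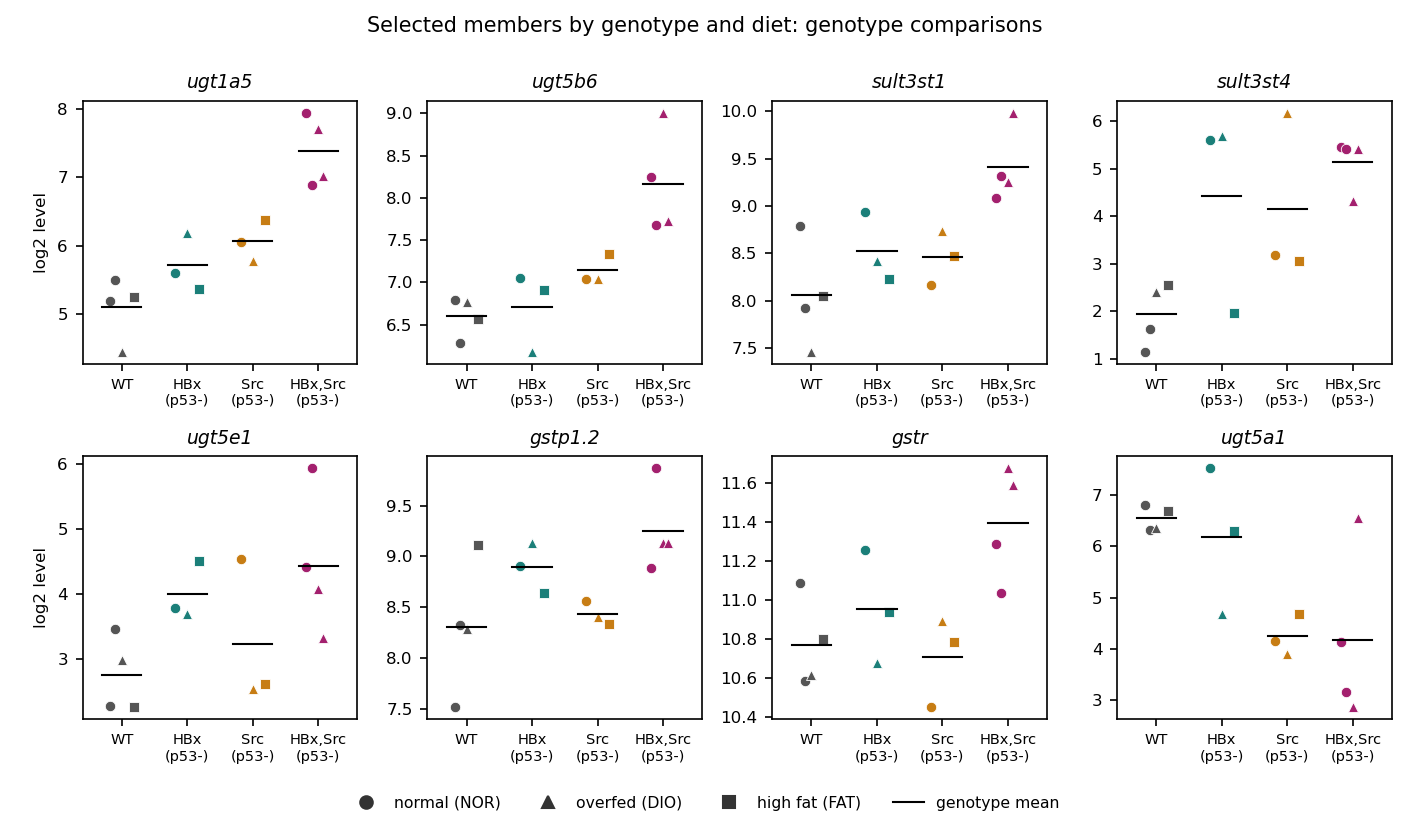
Log2 level of 8 members on each array, by genotype (x axis) and diet (circle NOR, triangle DIO, square FAT), with a line at the genotype mean. For ugt1a5, ugt5b6 and sult3st1 the 4 HBx,Src(p53-) arrays lie above the 10 other arrays, and for ugt5a1 the 3 Src(p53-) arrays lie below the 4 WT arrays.

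In the ugt5b cluster, where 6 genes follow each other in RefSeq order, 3 of the 4 measured members were higher in every HBx,Src(p53-) array than in every WT array. The levels of ugt5b6 were 6.80, 6.29, 6.77 and 6.57 in WT (normal 1 and 2, overfed, high fat) and 8.25, 7.67, 9.0 and 7.72 in HBx,Src(p53-) (normal 1 and 2, overfed 1 and 2). The difference was +1.59 ± 0.32 (adjusted p = 0.0563), short of the threshold. Over all settings it ran from +0.83 to +1.79, with adjusted p from 0.0301 to 0.783. For ugt5b4 the ranges were 4.08 to 4.61 and 4.90 to 5.93, and for ugt5b3 2.41 to 2.96 and 2.97 to 3.57. A probe set shared by ugt5b1, ugt5b2 and ugt5b3 did not overlap either, with WT up to 4.64 and HBx,Src(p53-) from 4.86. One shared by ugt5b1 to ugt5b4 did overlap, with WT at 2.94 to 3.33 and HBx,Src(p53-) at 2.85 to 3.39. The pseudogene ugt5b5 did not follow them, with 1.38 to 2.49 in WT, 1.70 to 2.82 in HBx,Src(p53-) and its highest value, 5.01, on HBx(p53-) overfed. Cross-binding between such similar genes is possible, so their values may not be independent.

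In the ugt5a cluster no member was called, and on the probe sets used levels in Src(p53-) were below those in WT. The levels of ugt5a1 were 6.81, 6.32, 6.36 and 6.68 in WT, 7.52, 4.68 and 6.30 in HBx(p53-) (normal, overfed, high fat) and 4.15, 3.90 and 4.68 in Src(p53-). In HBx,Src(p53-) they were 4.14 and 3.15 on normal diet and 2.87 and 6.55 overfed. All 3 Src(p53-) arrays were below all WT arrays, and so were the HBx,Src(p53-) arrays other than overfed 2. The difference from WT was -2.29 ± 0.82 (adjusted p = 0.80) with Src alone and -2.24 ± 0.78 (adjusted p = 0.262) with both transgenes, and neither was called. Its neighbours ugt5a4 and ugt5a5, chosen after their values were seen, were also lower in all Src(p53-) arrays (2.70 to 2.91 and 1.69 to 1.97) than in all WT arrays (3.5 to 4.96 and 2.22 to 2.65). In HBx,Src(p53-) ugt5a4 was at 2.68 to 4.88, overlapping WT through overfed 2, and ugt5a5 at 1.77 to 1.99, below WT. The low levels of ugt5a5 are below the median of all genes, where differences are compressed. On the second probe set of ugt5a5 (r = 0.608 to the first) Src(p53-), at 1.25 to 1.64, overlapped WT, at 1.53 to 2.06. Some probe sets name several ugt5a genes, and cross-binding was not tested, so the values of these genes may not be independent.

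Other ugt genes in HBx,Src(p53-) gave differences that were not called. For ugt5e1 the levels were 2.28, 3.46, 2.99 and 2.27 in WT and 4.42, 5.93, 4.07 and 3.32 in HBx,Src(p53-), a difference of +1.75 ± 0.51 (adjusted p = 0.172). HBx,Src(p53-) overlapped WT through overfed 2. HBx(p53-), at 3.79, 3.69 and 4.50, was above all WT arrays (+1.38 ± 0.53, adjusted p = 0.762). For ugt2b6, of the family that conjugates steroids in mammals, the WT mean was 4.98 ± 0.64 (SD, n = 4), that of HBx,Src(p53-) was 6.14 ± 0.81 (SD, n = 4), and the ranges overlapped (+1.07 ± 0.33, adjusted p = 0.195). The gene ugt5c2 showed no separation, with WT at 6.5 to 7.74 and HBx,Src(p53-) at 6.96 to 7.61.

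Among the sulfotransferases, the ranges of HBx,Src(p53-) and WT did not overlap for sult3st1 and sult3st4. The levels of sult3st1 were 8.79, 7.93, 7.47 and 8.05 in WT and 9.08, 9.31, 9.25 and 9.98 in HBx,Src(p53-), and the other lines lay between 8.16 and 8.93. The difference from WT was +1.32 ± 0.32 (adjusted p = 0.100). The levels of sult3st4 were 1.15, 1.64, 2.41 and 2.56 in WT, 5.59, 5.69 and 1.96 in HBx(p53-), 3.19, 6.17 and 3.07 in Src(p53-), and 5.45, 5.41, 4.31 and 5.42 in HBx,Src(p53-). WT was thus below every array of the mutant lines other than HBx(p53-) high fat. Against WT the differences were +2.51 ± 0.81 with HBx, +2.23 ± 0.81 with Src and +2.76 ± 0.77 with both transgenes, with adjusted p of 0.580, 0.802 and 0.152, and the 3 comparisons share the WT arrays. The second probe set of sult3st4 correlated with the first at r = 0.742 over the 14 arrays. It gave a smaller difference, with WT at 1.43 to 2.20 and HBx,Src(p53-) at 2.32 to 3.39. On this second set HBx(p53-), at 2.18 to 3.65, and Src(p53-), at 1.74 to 2.86, both overlapped WT.

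Among the glutathione transferases no member was called in HBx,Src(p53-), and 5 were higher and 1 lower at an unadjusted p under 0.05 (35.3% of the gst genes). Of all members 15 (26.3%) reached that p, against 12.0% of all genes. The pi-class gene gstp1.2, whose rat counterpart marks preneoplastic liver foci, was at 7.52, 8.33, 8.28 and 9.11 in WT and at 8.88, 9.87, 9.13 and 9.13 in HBx,Src(p53-) (+0.99 ± 0.32, adjusted p = 0.228). The ranges overlapped through the WT high fat array. For gstr WT spanned 10.58 to 11.08 and HBx,Src(p53-) 11.03 to 11.67 (+0.62 ± 0.22, adjusted p = 0.271). The mu-class gene gstm.1 ran up to 6.29 in WT and from 6.44 in HBx,Src(p53-), without overlap (+1.01 ± 0.38, adjusted p = 0.304). The kappa genes, which in mammals code for mitochondrial and peroxisomal enzymes, differed in sign, with gstk1 at +0.77 ± 0.22 (adjusted p = 0.174) and gstk2 at -0.55 ± 0.20 (adjusted p = 0.284). However, gstk2, at 1.63 to 2.90, and gstk4, at 2.00 to 2.62, lay below the median of all genes on every array, where differences are compressed. Leaving out 1 array moved the change of gstk2 to between -0.66 and -0.32.

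In HBx(p53-) against WT no member was called, while 13 genes (0.0622%) were called over all genes. At an unadjusted p under 0.05 there were 8 members, against 5.85% of all genes, and the rule of over 2-fold took 5 of them (8.77%) against 1.91% of all genes. The theta-class gene gstt2 was at 8.10, 7.55, 6.99 and 7.89 in WT and at 5.65, 6.98 and 6.78 in HBx(p53-), so that each HBx(p53-) array was below each WT array (-1.21 ± 0.37, adjusted p = 0.510). Without the HBx(p53-) normal array the difference was -0.77, and the count over 2-fold was 2. It was 9 without the HBx(p53-) overfed array. Of the others, sult1st4 was +1.06 ± 0.42 (adjusted p = 0.786) and ugt5b5 +1.17 ± 0.48 (adjusted p = 0.80), the latter through the HBx(p53-) overfed array.

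In Src(p53-) against WT no member was called, against 5 genes (0.0239%) in all. At an unadjusted p under 0.05 there were 6 members (10.5%), against 5.39% of all genes, and 3 passed the rule of over 2-fold (5.26%) against 1.51% of all genes. These were sult3st4, ugt5a1 and ugt5f1 (-1.45 ± 0.64, adjusted p = 0.918). The gene ugt1a5 was above all WT arrays in all 3 Src(p53-) arrays, with +0.99 ± 0.34 (adjusted p = 0.793). The dim gene sult4a1 was -0.48 ± 0.18 (adjusted p = 0.837) and lay below all WT arrays both here and in HBx(p53-). The ranges did not overlap for 10 members (17.5% against 5.82% of all genes) and, in HBx(p53-), for 7 (12.3% against 6.72%). Among the 10, sult1st7, ugt5c1, ugt5a5, sult4a1 and gstm.2 had means of 1.67 to 2.91, below the median of all genes. Among the 7 the same was true of sult4a1, sult5a1 and ugt5g2. Some ranges barely parted, as for sult4a1, with Src(p53-) up to 2.3485 and WT from 2.3523. Second probe sets of sult1st7 and ugt5c1 correlated with the first at r = -0.065 and -0.050. The count over 2-fold was 6 without WT normal 2 and 5 without WT high fat, HBx(p53-) normal or HBx(p53-) overfed.

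No member separated all 10 mutant arrays from all 4 WT arrays, against 0.402% of all genes.

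Diet was compared within each line, with overfed and high fat arrays together as the obesity diet. In WT no gene was called (0.0%), and no member reached an unadjusted p under 0.05, against 4.33% of all genes. By the rule of over 2-fold 0 members passed against 1.73% of all genes, and 2 passed when any 1 of the 4 WT arrays was left out. The members had a median diet change of +0.09 against +0.02 for all genes, and of -0.06 without the WT high fat array.

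In HBx,Src(p53-) the diet comparison set 2 overfed arrays against 2 normal arrays. It called 3 genes (0.0143%) and 0 members, with 6 members (10.5%) at an unadjusted p under 0.05, close to the 10.7% of all genes. All 6 were also over 2-fold, against 6.44% of all genes, and leaving out overfed 2 gave 3. The phenol-class gene sult1st6 was at 7.22 and 7.2 on normal diet and at 5.70 and 5.54 overfed. The 10 arrays of the other lines lay between 4.75 and 6.12, so the normal diet HBx,Src(p53-) arrays were the high ones and the overfed arrays lay within the range of the other lines. The difference was -1.59 ± 0.22 (adjusted p = 0.120). For ugt1b3 the values were 5.06 and 6.73 on normal diet and 4.40 and 4.81 overfed (-1.29 ± 0.49, adjusted p = 0.387), and the size rested on normal 2, since without it the difference was -0.45.

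Other members were not called either. The theta-class gene gstt1a was at 7.31 and 7.61 on normal diet and at 8.57 and 8.58 overfed (+1.12 ± 0.40, adjusted p = 0.359). The gene ugt2b6 was at 5.13 and 5.97 and at 6.42 and 7.06 (+1.19 ± 0.45, adjusted p = 0.386), and ugt5e1 at 4.42 and 5.93 and at 4.07 and 3.32 (-1.48 ± 0.58, adjusted p = 0.398). Leaving out 1 array took the change of ugt2b6 to between +0.77 and +1.61. The +3.42 ± 1.46 of sult1st3 (adjusted p = 0.442) came from the value of 1.72 on normal 2. With that array as the only normal one, after normal 1 was left out, it was +6.28 (adjusted p = 0.0387), the only call of a member in this comparison over all settings.

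In HBx(p53-) no gene was called for diet (0.0%), but 11 members (19.3%) were over 2-fold at an unadjusted p under 0.05, against 2.32% of all genes, or 3.74% at that p with any fold. All 11 rest on the single HBx(p53-) normal array, without which there is no value, and the count was 7 without the overfed array. The HBx(p53-) normal array held the highest value of 9 members (15.8%, against 6.34% of all genes) and the lowest of 7 (12.3%, against 6.61%). The values of ugt5b4 were 6.76 on normal diet, 4.46 overfed and 4.42 on high fat food (-2.32 ± 0.39, adjusted p = 0.458), and the other 13 arrays lay between 4.08 and 5.93. Its further probe sets were highest on the same array. A copy of the set used held the same values, and the others were at up to 6.35. Some of those also hold identical values, so they are not independent. The neighbours ugt5b3 (4.33 against 2.41 to 3.57) and, in the ugt5a cluster, ugt5a5 (3.99 against 1.69 to 3.03) were high there too. On the other probe set of ugt5a5, however, the HBx(p53-) normal array was at 1.95, below WT overfed at 2.06.

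The alpha-class gene gsta.1 was at 5.55 on the HBx(p53-) normal array and between 3.75 and 4.74 elsewhere (-1.65 ± 0.40, adjusted p = 0.939), and gstt1a at 9.10 and between 6.83 and 8.58 elsewhere. In the other direction sult1st6 was lowest there, at 4.75 against 5.80 overfed and 5.75 on high fat food (+1.02 ± 0.27, adjusted p = 0.977). The same held for gstt2 (5.65 against 6.98 and 6.78), ugt2b6 (3.86 against 5.65 and 5.59) and ugt2b5 (4.06 against 6.52 and 6.60). For ugt2b6 another of its 3 probe sets had the normal array highest of the line (4.83 against 4.16 and 3.62), and the diet change of +1.76 was +0.57 with their mean. With 1 normal array, a diet difference in HBx(p53-) and a difference of that array alone cannot be told apart.

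**Figure D4:**
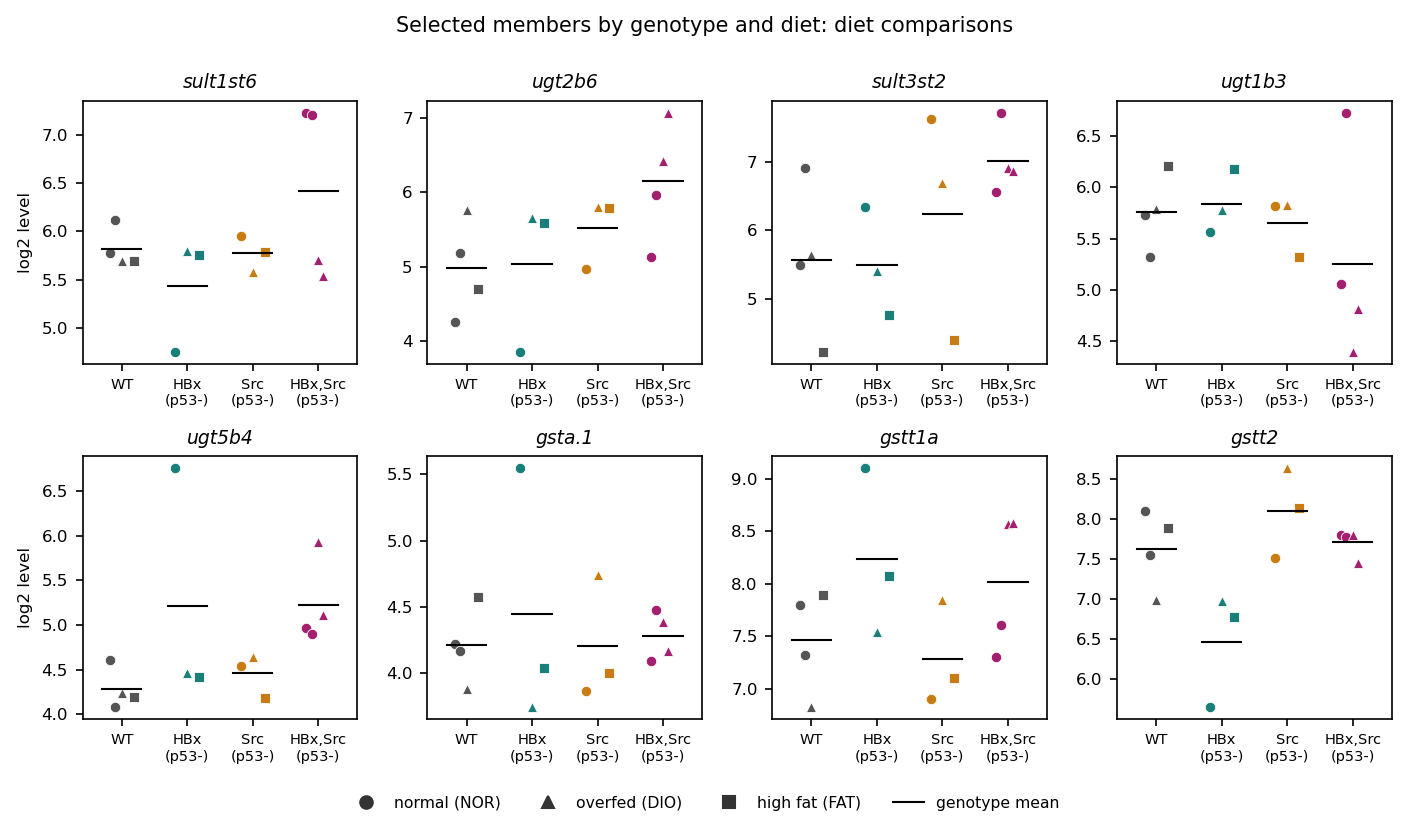
Log2 level of 8 members on each array, by genotype (x axis) and diet (circle NOR, triangle DIO, square FAT), with a line at the genotype mean. The 2 normal arrays of HBx,Src(p53-) stand above all others for sult1st6, and the HBx(p53-) normal array stands apart for ugt5b4 (6.76), gsta.1 (5.55), gstt1a (9.10) and gstt2 (5.65).

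In Src(p53-) no gene was called for diet (0.0%), and 3 members (5.26%) were over 2-fold at an unadjusted p under 0.05 against 3.37% of all genes, or 5.06% at that p with any fold. The count was 5 without the high fat array. The gene ugt5e1 was at 4.54 on normal diet, 2.53 overfed and 2.62 on high fat food (-1.96 ± 0.71, adjusted p = 0.926). The gene ugt2b5 was at 4.67, 7.38 and 6.59 (+2.32 ± 0.93, adjusted p = 0.976) and gstm.1 at 5.14, 5.83 and 6.65 (+1.1 ± 0.45, adjusted p = 0.976). In each case the single normal array lay outside the other 2, and for ugt2b5 the same was true in HBx(p53-). Leaving out 1 array took the change of gstm.1 to between +0.69 and +1.50.

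Lines with Src were then set against WT and HBx(p53-) for their response to diet in the same model. This tests the difference between diet changes itself. The obesity diet arrays of HBx,Src(p53-) were overfed only, while those of the other lines were overfed and high fat. A difference between lines and one between feeding methods therefore cannot be fully told apart here. No gene was called (0.0%), with 12 members (21.1%) at an unadjusted p under 0.05, against 7.79% of all genes. Of the members 10 (17.5%) differed over 2-fold at that p against 5.4% of all genes, 6 without the Src(p53-) overfed array and 5 when overfed 2 of HBx,Src(p53-) was left out. The largest moderated statistic was that of ugt5b4 in the positive direction (+1.45 ± 0.36, adjusted p = 0.472) and of sult1st6 in the negative (-1.32 ± 0.25, adjusted p = 0.452), followed by gstt1a (+1.60 ± 0.45, adjusted p = 0.517). The HBx(p53-) normal array described above enters the contrast for every gene. It held the highest value of ugt5b4 and of gstt1a and the lowest value of sult1st6.

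The feeding methods were also compared over all lines, with genotype as a term. For overfeeding against normal diet no gene was called (0.0%), with 4 members (7.02%) at an unadjusted p under 0.05, near the 6.2% of all genes. Only ugt2b6 was over 2-fold at that p, which is 1.75% of the members against 0.861% of all genes. It was at 4.26 and 5.18 in WT, 3.86 in HBx(p53-), 4.96 in Src(p53-), and 5.13 and 5.97 in HBx,Src(p53-) on normal diet. The overfed arrays were at 5.76, 5.65, 5.80, and 6.42 and 7.06 in the same order, so overfed was above normal within all 4 lines, although the ranges over lines overlapped. The difference was +1.16 ± 0.28 (adjusted p = 0.739). Its probe set with r = 0.936 to the first ran from 4.07 to 6.53, the third (r = 0.444) was lower overfed than normal in HBx(p53-), and the mean of the 3 did not reach 2-fold at that p.

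The neighbouring gene ugt2b1 was +0.81 ± 0.31 (adjusted p = 0.764) and the dim gstk2 +0.39 ± 0.17 (adjusted p = 0.785), while ugt5e1 was -0.93 ± 0.42 (adjusted p = 0.793). The change of ugt2b1 was as small as +0.335 in the alternative settings. Its other probe sets correlated with the one used at r = 0.788, 0.222 and -0.356. No member separated the 5 overfed from the 6 normal arrays, against 0.402% of all genes. Leaving out WT normal 1, WT normal 2 or HBx,Src(p53-) overfed 2 turned the count of 1 into 2. It was 3 without WT overfed, HBx(p53-) normal or HBx(p53-) overfed, and 4 without HBx,Src(p53-) normal 1.

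For high fat food against normal diet no gene was called (0.0%), with 2 members (3.51%) at an unadjusted p under 0.05, against 3.86% of all genes. Only sult3st2 was over 2-fold at that p, which is 1.75% of the members against 0.765% of all genes. Its levels were 4.23 in WT, 4.76 in HBx(p53-) and 4.41 in Src(p53-) on high fat food. On normal diet they were 5.50 and 6.91 in WT, 6.34 in HBx(p53-), 7.62 in Src(p53-) and 6.56 and 7.71 with both transgenes. All 3 high fat arrays were below all 6 normal arrays and below the overfed arrays of 5.40 to 6.90. No overlap between high fat and normal arrays, in either direction, was seen for 1 member (1.75%) and for 1.79% of all genes. For sult3st2 the difference was -2.13 ± 0.39 (adjusted p = 0.510). On the probe set shared by sult3st2 and sult3st3 this separation did not hold. There the high fat arrays were at 4.07 to 4.47, against 4.40 on WT normal 1 and 4.31 on HBx(p53-) overfed. Within each of WT, HBx(p53-) and Src(p53-) the high fat array was still the lowest. The count became 2 or 3 on leaving out WT normal 1, WT overfed, WT high fat, HBx(p53-) overfed, HBx(p53-) high fat or HBx,Src(p53-) normal 2.

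**Figure D5:**
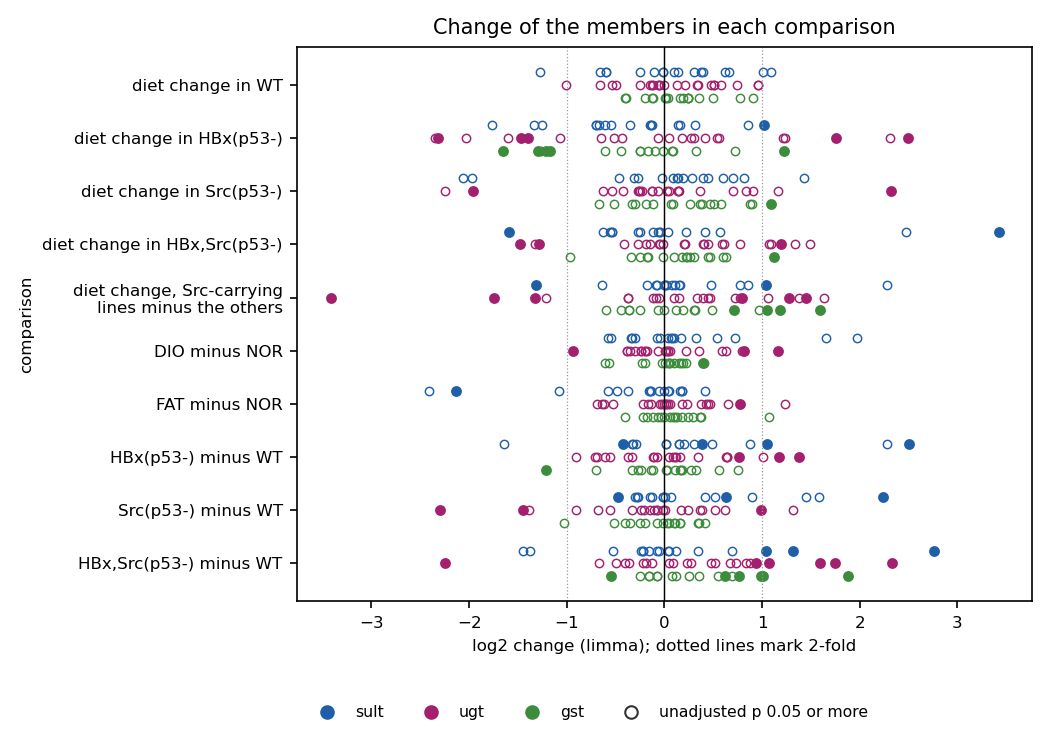
Log2 change of each of the 57 members (points, blue sult, magenta ugt, green gst) in the 10 comparisons (y axis), with filled points at an unadjusted p under 0.05 and dotted lines at 2-fold. Filled points are absent for the WT diet change and number 15 in HBx,Src(p53-) against WT, where ugt1a5 at +2.33 is the call.

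Genes around conjugation were read from 4 lists, and 1 of their measured genes was called in the genotype comparisons. In the list for supply and turnover of the cosubstrates 24 of 25 genes were measured. Of these gsr, which reduces oxidized glutathione, rose in HBx,Src(p53-) by 1.41 ± 0.19 (adjusted p = 0.00981). The same list, which joins genes of synthesis and of breakdown, had a median of +0.23 there, against +0.03 for all genes. In it 16 genes were higher and 8 lower. The glutathione synthase gss was -0.88 ± 0.31 (adjusted p = 0.263). None of the 18 measured genes of 22 for conjugate hydrolysis and export was called, and their median was -0.17. None of the 20 measured regulators of 24 was called, with a median of -0.11, and ahr1a, an aryl hydrocarbon receptor, was -1.72 ± 0.44 (adjusted p = 0.118). None of the 17 measured response targets of 21 was called, with a median of +0.13 and with 9 genes higher and 8 lower. Among them nqo1, a quinone reductase, was +1.50 ± 0.47 (adjusted p = 0.195) and hmox1b was -2.23 ± 0.83 (adjusted p = 0.292).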

How the data were processed

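Liver RNA was hybridized to ZebGene 1.1 ST arrays. The deposited values are log2 levels of probe sets, which the authors computed by RMA (robust multi-array averaging) with oligo; versions are not given in the sources used here. RMA equalizes the distribution of the arrays, so a change in total RNA is not visible, and it compresses differences of dim probe sets. Of the 75212 probe sets in the table, the platform annotation gave 30358 1 symbol (830 of these repeatedly), 1015 several and 43839 none. After 217 capital spellings were merged, 20908 genes remained, all of which were tested, with no filter. Where a gene had several probe sets (6449 genes), the highest mean decided. Of the members 18 had several probe sets and 39 had 1. Array medians lay between 2.10 and 2.23. The probe build was not given, so RefSeq (GRCz12tu) served for names and gene order only.

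Within-line diet comparisons and their difference were contrasts of 8 cell means in limma, and feeding method and genotype comparisons from an additive model of genotype and diet (R 4.3.3, limma 3.58.1, lmFit, contrasts.fit and eBayes). All 14 arrays entered each fit, so groups of 1 array borrow the spread of the rest. HBx,Src(p53-) entered the high fat comparison through its other arrays. P-values were adjusted over all genes by Benjamini-Hochberg. Summaries and plots used Python 3.11.15, pandas 2.3.3, numpy 2.4.6 and matplotlib 3.10.9. The fit was tested on simulated data.

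The members and lists were chosen with earlier results of these data known. Members named with values were the 3 of each class with the highest mean and the 3 with the widest range, in each comparison the 2 with the largest moderated statistic in either direction among those at an unadjusted p under 0.05, and every called member. Other members named were chosen after their values were seen. Alternatives were the mean of all probe sets, genes above the median level only, median centring or quantile normalization after deposit, an intensity trend with robust moderation, 11 cell means, marker covariates, a replicate block and leaving out each array. The leukocyte, germ cell and red blood cell covariates were added after seeing the data. The arrays with the same number were not taken as pairs, because the labels do not say that a number marks a shared fish or batch. Sex and scan dates are not given in the sources used here, so no batch was tested.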

Additional observations from a re-analysis of the deposited data

Results flagged for a closer look

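Of 116 groups of 4 to 10 arrays examined over the 29 members named by rule, 12 held an array far from the others by Dixon's criterion. Chance alone flags about 1 in 20 groups of genes not chosen by their values. Many of these members were named for wide ranges or large statistics, and the groups share arrays. That rate is therefore no yardstick for the 12. The HBx(p53-) normal array was apart from the other 5 normal diet arrays for gsta.1 (5.55 against 3.87 to 4.48), ugt5b4 (6.76 against 4.08 to 4.96) and gstt2 (5.65 against 7.51 to 8.10). HBx,Src(p53-) normal 2 was apart for gstt1b (7.2 against 3.09 to 4.06 on the other normal arrays) and for sult1st3, both in its line (1.72 against 7.44 to 8.56) and among normal arrays (1.72 against 6.67 to 7.62).

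Within HBx,Src(p53-), overfed 2 was low for gstt2 (7.45 against 7.78 to 7.81) and high for ugt2b5 (7.76 against 6.66 to 6.83), and overfed 1 was low for sult3st4 (4.31 against 5.41 to 5.45). Within WT, the high fat array was low for sult1st3 (6.28 against 7.55 to 7.71), normal 2 was low for sult1st4 (5.32 against 6.87 to 7.17), and the overfed array was high for ugt2b1 (7.71 against 6.90 to 6.99).

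Probe sets that name several genes were in no comparison, and 4 of 18 had all HBx,Src(p53-) arrays above all WT arrays, against 5.81% of all genes without overlap in either direction. The other 14 overlapped, among them a second set of the 7 ugt1a genes and one of ugt5b1 to ugt5b4, and several sets share genes. The lowest HBx,Src(p53-) value was 7.71 on a set of 7 ugt1a genes (WT up to 7.55). It was 6.63 and 8.10 on 2 sets of ugt2a1 to ugt2a4 (WT up to 6.55 and 7.87), and 4.86 on a set of ugt5b1, ugt5b2 and ugt5b3 (WT up to 4.64).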

How the results depend on the processing

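Among recomputed changes of single members 762 kept their direction and their side of the threshold, 3 newly passed it, 4 no longer passed it and 0 reversed. Of the 32 results recomputed only ugt1a5 in HBx,Src(p53-) against WT was called, so most of the 762 were uncalled results that stayed uncalled. The count of members called in HBx,Src(p53-) against WT was 1, but 2 over genes above the median level and 0 with the pancreas, leukocyte or germ cell covariate, and it ran from 0 to 2 without each array in turn. The count called for diet in HBx,Src(p53-) was 0, and 0 to 1 without each array.

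The counts over 2-fold at an unadjusted p under 0.05 moved more often. For diet in WT the count of 0 became 1 with the intestine or germ cell covariate or 11 cell means and 3 with the leukocyte covariate (0 to 2 without each array). For diet in Src(p53-) the 3 became 5 with 11 cell means or the leukocyte covariate and 1 with the germ cell covariate (2 to 5). For overfeeding the 1 became 0 with the mean of all probe sets, 2 with the pancreas, leukocyte or red blood cell covariate and 3 with the germ cell covariate (1 to 4). For high fat food the 1 became 2 over genes above the median level, with median centring, with the robust trend and with the leukocyte or red blood cell covariate, 3 with the pancreas and 4 with the intestine covariate (1 to 3). For HBx(p53-) against WT the 5 became 3 with the pancreas or intestine covariate (2 to 9), for Src(p53-) the 3 became 5 with the pancreas covariate (2 to 6), and for HBx,Src(p53-) the 10 became 5 with it (6 to 12). The highest count for HBx,Src(p53-) in any setting was 14. Without each array the count was 7 to 12 for diet in HBx(p53-), 3 to 7 for diet in HBx,Src(p53-) and 5 to 11 for the difference between lines. The median change of the members in HBx,Src(p53-) against WT, +0.12, was 0.51 over genes above the median level and -0.05 with median centring. The cause of these shifts was not tested.

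With the sample number as a replicate block, the diet comparison in HBx,Src(p53-) gave 0 members called and 7 over 2-fold, and sult1st6 kept -1.59 (adjusted p = 0.169). Same-numbered arrays deviated together with r = 0.128 over genes, and with 2 numbers this does not establish a pairing. Without the only normal array of HBx(p53-) or Src(p53-) the diet change of that line and the difference between lines could not be fitted. With 1 or 2 arrays a group and no batch record, only wide differences could be called.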
